A study of Rattus norvegicus with 6 samples.

Results

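The genes described here encode the 2 classes of microtubule motor, their partners, and the tubulins from which microtubules are built. They were taken from the deposited count table by name: kinesins (Kif and Klc), cytoplasmic dynein chains (Dync and Dynl), dynactin subunits (Dctn), alpha, beta and gamma tubulins with the gamma-tubulin ring complex (Tuba, Tubb, Tubg and Tubgcp), tubulin folding cofactors (Tbca to Tbce), end-binding proteins (Mapre) and stathmins (Stmn). The names matched 96 of 32883 rows. The RNA came from GH4C1, an established rat pituitary line that makes growth hormone and prolactin. All libraries were from wild type cells treated with psoralen, which crosslinks base-paired nucleic acids, and grown in HamF10 medium to which serum from horse (15%) and from fetal calf (2%) was added. RNA was pulled down with oligo pool A or oligo pool B, with 3 libraries each, to find RNAs bound directly to the long noncoding RNA Neat1, and read as paired 150-base strand-specific reads. The labels do not give the sequences of the pools, whether one served as a control, or whether the libraries came from separate cultures, so p-values measure the spread between these libraries, which may be technical. All cells are of 1 line. Neat1 itself and input RNA were not analysed here, so a difference below is one between pools and not an enrichment over the cells' RNA.

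Kinesins and dynein are ATP-driven motors that walk along microtubules, most kinesins towards the growing plus end and cytoplasmic dynein towards the minus end. Dynactin links dynein to its cargo, and light chains or adaptors decide what each motor carries. Microtubules are polymers of alpha and beta tubulin that start from gamma-tubulin rings. In endocrine cells such as lactosomatotrophs, these motors move secretory granules, mitochondria and endosomes, while another group of kinesins works in the mitotic spindle of dividing cells.

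Total counts were between 1826390 and 3685899 per library, so that 1 count equals between 0.271 and 0.548 CPM, a library's counts scaled to a common total. A run of 22 rows around the 5.8S ribosomal RNA gene took between 13.3% and 22.9% of the counts with pool A and between 6.07% and 11.1% with pool B. CPM values below use the total counts, whereas fold changes use TMM scaling in edgeR: the median log2 fold change of all genes was 0.02 with TMM and -0.13 with total counts alone. The lineage genes Prl, Gh1 and Pou1f1 had between 386 and 759, 149 and 187, and 139 and 227 CPM, and Ghrhr had no count. Prl was higher with pool A (log2 fold change 0.83 ± 0.14 (SE), edgeR adjusted p 1.26e-05). Chgb, a secretory granule protein and the marker with the most counts, went the other way, with 3742 ± 428 CPM with pool A and 31688 ± 3739.6 CPM with pool B (SD, n = 3; log2 fold change -2.94 ± 0.17 (SE), edgeR adjusted p 4.86e-14). Of 9 markers of other pituitary or stromal cells, 8 were matched by name, Tshb and Fshb had no count, and the summed level of the list was between 14.6 and 26.04 CPM with pool A and between 52.0 and 57.5 CPM with pool B, mostly Lhb. The part of this list in the differences below was not tested.

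Of the 96 genes, 80 had enough counts to be tested. The other 16 had at most 7 counts in any library, among them 6 with no count at all (Kif2b, Kif6, Dynlrb2, Tubal3, Tubb1 and Stmn4). Of the 80 tested, 20 (25%) passed an edgeR adjusted p of 0.05 in favour of pool A and 17 (21.2%) in favour of pool B, compared with 18.6% and 22.0% of all 11582 tested genes. These calls are differences in the RNA pulled down. Neither the number of cells with an RNA nor its level per cell was measured, and in bulk samples they cannot be told apart. In all, 37 of 80 (46.2%) passed, against 40.6% of all genes, and 17 (21.2%) passed with more than a 2-fold difference, against 25.4%. The CPM of the 2 pools did not overlap for 41 of the 80, against 49.1% of all genes, with pool A above in 18 (18.9% of all genes) and pool B above in 23 (30.2% of all genes). The median log2 fold change of pool A over pool B was 0.25 over these genes and 0.02 over all genes. The SD between libraries of the median of these genes, combined over both pools, was 0.21 on the log2 scale. The median size of the difference was 0.53 here and 0.61 over all genes. Fold changes ran from -2.28 (Dync1li2) to 1.99 (Tbcc). The split of the calls depended on scaling. Total counts alone gave 12 for pool A and 20 for pool B, and upper-quartile factors gave 25 and 16. Pool A thus took 54.1% of the calls under TMM, 37.5% under total counts and 61.0% under upper-quartile factors.

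**Figure D1:**
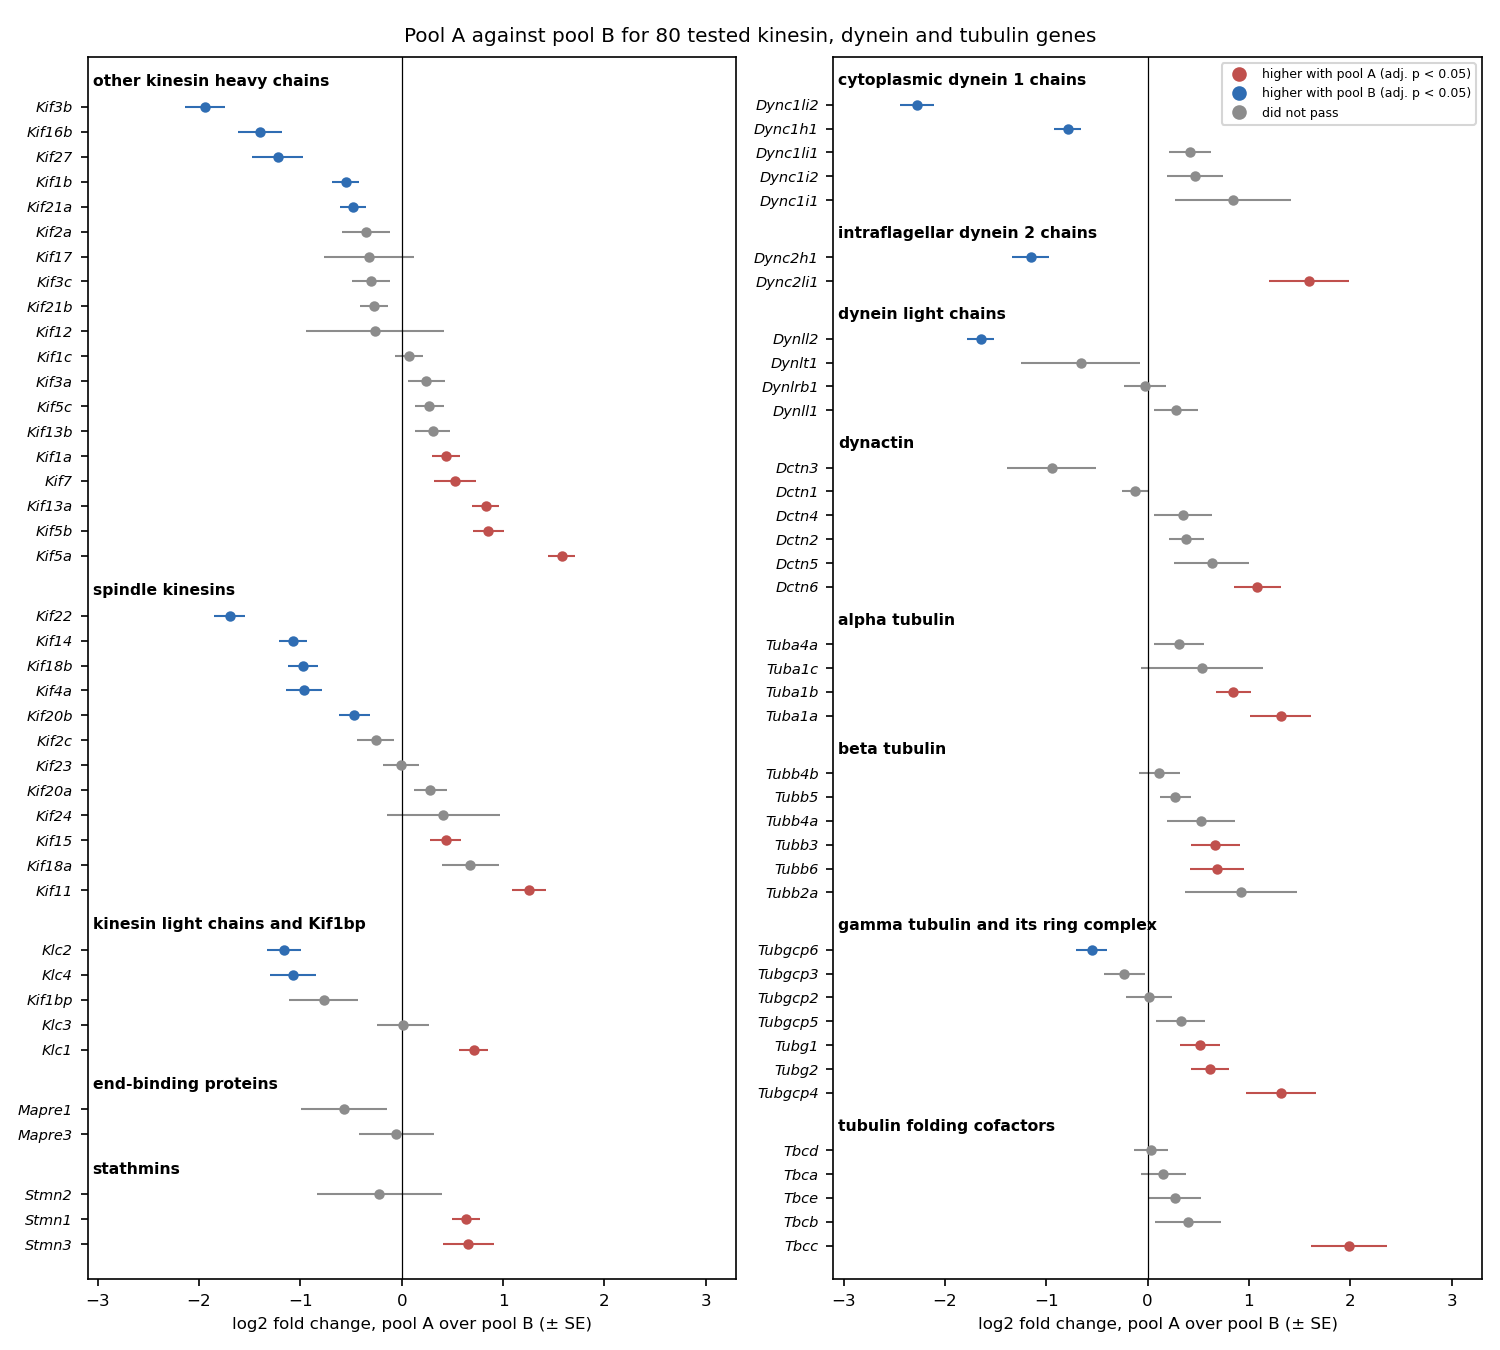
Log2 fold change of pool A over pool B (x axis, edgeR, TMM) with its standard error for each of the 80 tested genes (rows), grouped by class; red and blue points passed an adjusted p of 0.05 in favour of pool A or B, grey points did not. The kinesin and dynein classes hold points on both sides, from -2.28 for Dync1li2 to 1.60 for Dync2li1, while the 10 alpha and beta tubulin genes all lie at or above 0.12 with this scaling; Tubb4b falls below 0 with total counts alone and without replicate 1 of either pool.

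More calls were made among genes with more counts. Among the 40 tested genes with a mean count at or above 174, 26 passed (65%), and among the 40 below it 11 passed (27.5%). Over all tested genes, at any depth, 40.6% passed. The share of all genes at each depth was not computed, so these 2 shares are not set apart from a general effect of depth. The median size of the difference was 0.54 in the first set and 0.53 in the second. The median log2 fold change was 0.015 in the first set, with 20 genes on each side. It was 0.32 in the second, with 27 genes on the side of pool A and 13 on that of pool B. The median of 0.25 over all 80 genes thus came from the genes with fewer counts. The deeper set held 12 genes higher with pool A, against 14 with pool B, and the shallower set 8 and 3. The shares of all tested genes were 18.6% and 22.0%, again at any depth. A gene that did not pass with few counts may therefore still differ by an amount that this depth does not show.

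**Figure D2:**
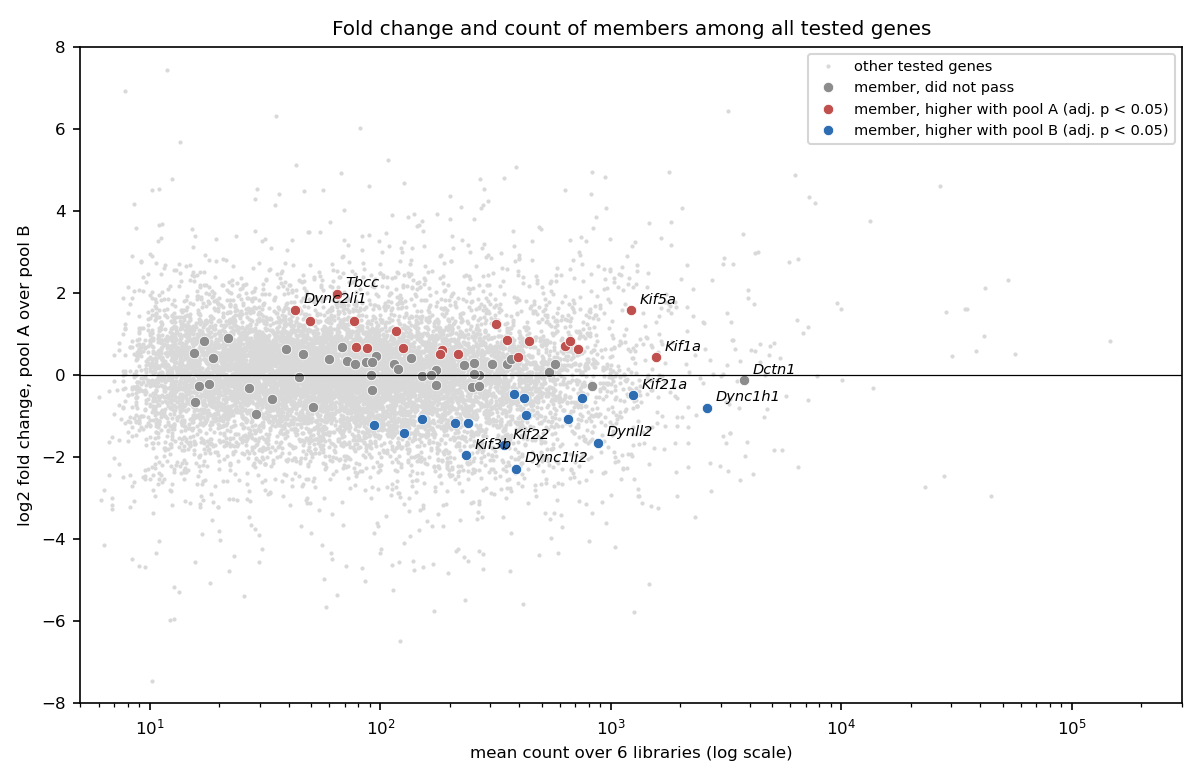
Log2 fold change of pool A over pool B (y axis) against the mean count over 6 libraries (x axis, log scale) for the 80 genes (large points, coloured by call) and all other tested genes (small grey points). The members lie within the cloud of other genes, between -2.28 and 1.99, and grey members are frequent at low counts.

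Of 3 heavy chains of conventional kinesin, the motor of axonal and vesicle transport, 2 passed in favour of pool A, as did 18.6% of all tested genes. Kif5a (ENSRNOG00000005299), the neuronal heavy chain, had 604, 582 and 629 CPM in replicates 1, 2 and 3 of pool A and 250.2, 224 and 197 CPM in those of pool B. The lowest pool A library was more than 2-fold above the highest pool B library. Its log2 fold change was 1.58 ± 0.13 (SE; edgeR adjusted p 1.35e-10). Kif5b, the ubiquitous heavy chain, had 151, 149 and 159 CPM with pool A and 86.2, 98.0 and 96.9 CPM with pool B, again without overlap. It was 1.81-fold higher with pool A (log2 fold change 0.86 ± 0.15 (SE), edgeR adjusted p 3.64e-05). Kif5c, the third heavy chain, had 211 ± 11.4 CPM (SD, n = 3) and 194 ± 20.9 CPM (SD, n = 3), which overlapped, and a log2 fold change of 0.27 ± 0.14 (SE; edgeR adjusted p 0.122). It passed with upper-quartile factors (edgeR adjusted p 0.029, in a range of 0.029 to 0.541 across the alternatives).

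The light chains, which bind cargo and hold the motor in an inactive fold, did not move as one. Klc1 had 251, 247 and 284 CPM with pool A and 202, 148 and 177 CPM with pool B. Like Kif5a and Kif5b, it was above every pool B library in each pool A library, by 0.71 ± 0.14 (SE) on the log2 scale (edgeR adjusted p 0.000194). Klc2 went the other way, with 46.4, 57.3 and 54.0 CPM with pool A and 125, 142 and 123 CPM with pool B. Its 2.23-fold difference in favour of pool B (log2 fold change -1.16 ± 0.17 (SE), edgeR adjusted p 2.98e-06) was without overlap. Klc4 had 40.2, 29.7 and 30.7 CPM with pool A and 64.8, 62.4 and 107 CPM with pool B. The pool B library of replicate 3 stood above the other pool B libraries, yet all 3 exceeded every pool A library (log2 fold change -1.07 ± 0.23 (SE), edgeR adjusted p 0.000396). Klc3 had nearly the same level with both pools, 31.0 ± 4.73 CPM and 34.0 ± 7.05 CPM (SD, n = 3). Kif1bp, a protein that binds several kinesins and blocks their contact with microtubules, had 11.1, 19.0 and 10.7 CPM with pool A and 19.1, 32.3 and 26.1 CPM with pool B. Its ranges touched closely without overlapping, and its log2 fold change of -0.77 ± 0.34 (SE) did not pass (edgeR adjusted p 0.0731). It passed under some alternatives: the edgeR adjusted p was 0.0294 with total counts alone, 0.0293 without pool A replicate 2, and 0.0395 with pool B replicate 1 left out, in a range of 0.0293 to 0.241 across the alternatives.

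Kinesin-2 is built from Kif3a paired with Kif3b or Kif3c and works in cilia and in vesicle transport. Kif3b had the largest difference among the kinesins, with 45.3, 26.9 and 31.1 CPM with pool A and 155, 168 and 121 CPM with pool B. Every pool B library was more than 2-fold above every pool A library. The difference was 3.84-fold in favour of pool B (log2 fold change -1.94 ± 0.20 (SE), edgeR adjusted p 6.2e-09). Its partner Kif3a did not pass, with 83.4 ± 13.3 CPM and 77.4 ± 14.4 CPM (SD, n = 3; log2 fold change 0.24, edgeR adjusted p 0.318). Kif3c did not pass either (log2 fold change -0.30, edgeR adjusted p 0.222), except without pool A replicate 1, where its log2 fold change was -0.56 and its edgeR adjusted p 0.0294, in a range of 0.0294 to 0.676. Kifap3, the cargo-binding subunit of the same motor, does not match the name pattern and was taken from the list of kinesin adaptors. It had counts of 236, 177 and 180 with pool A and 60, 23 and 18 with pool B, or 63.5 ± 6.78 CPM and 13.3 ± 6.85 CPM (SD, n = 3). The subunits of this motor thus differed in direction, Kifap3 by 2.39 ± 0.29 (SE) in favour of pool A (edgeR adjusted p 1.29e-07) and Kif3b in favour of pool B. Kif17, the homodimeric kinesin-2, was at 8.42 ± 0.272 CPM and 11.9 ± 4.43 CPM (SD, n = 3) and did not pass (edgeR adjusted p 0.607).

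The remaining kinesins, outside the spindle class given below, also lay on both sides. Kif16b, which carries early endosomes, had 19.8, 24.1 and 30.7 CPM with pool A and 70.6, 80.5 and 66.2 CPM with pool B, which gave a log2 fold change of -1.40 ± 0.22 (SE; edgeR adjusted p 7.16e-06). Kif27, a relative of the Hedgehog pathway kinesin Kif7, had 18.4, 13.1 and 27.0 CPM with pool A and 52.5, 46.5 and 51.5 CPM with pool B. Neither gene had a pool A library as high as its lowest pool B library, and the log2 fold change of Kif27 was -1.22 ± 0.25 (SE; edgeR adjusted p 0.000292). Kif1a, the motor of dense-core and synaptic vesicle precursors and the member of its class with the most counts, had 684, 517 and 614 CPM with pool A and 539.9, 506 and 437 CPM with pool B. These ranges overlapped in CPM, and the log2 fold change was 0.44 ± 0.13 (SE; edgeR adjusted p 0.0102). This call was lost under some alternatives: the edgeR adjusted p was 0.113 with total counts alone, 0.0733 without pool A replicate 1, and 0.0854 with pool B replicate 3 left out, in a range of 0.00175 to 0.113 across the alternatives.

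Outside the rule for named genes, 4 other kinesins of this class passed and are given for completeness. Kif13a, an endosome and melanosome motor, had 275, 275 and 299 CPM with pool A and 175, 175 and 178 CPM with pool B (log2 fold change 0.83 ± 0.13 (SE), edgeR adjusted p 9.17e-06). Its libraries were tight within each pool and well apart between them. Kif1b, which moves mitochondria and vesicles, was higher with pool B (-0.55 ± 0.13 (SE), edgeR adjusted p 0.00116), the opposite side from Kif1a. Kif21a, which pauses microtubule growth, was also higher with pool B (-0.48 ± 0.13 (SE), edgeR adjusted p 0.00306). Kif7 had 90.9, 50.6 and 71.2 CPM with pool A and 53.9, 60.8 and 49.9 CPM with pool B and passed narrowly (log2 fold change 0.53 ± 0.20 (SE), edgeR adjusted p 0.0414). Its ranges overlapped and the call was lost under 7 of the 14 alternatives: the adjusted p was 0.0502 with DESeq2, 0.0661 with the replicate number as a block, 0.164 with total counts alone, 0.336 without pool A replicate 1, 0.0919 without pool B replicate 1, 0.0504 without pool B replicate 2, and 0.138 with pool B replicate 3 left out, in a range of 0.0116 to 0.336 across the alternatives in edgeR and DESeq2. The remaining genes of the class, Kif1c, Kif2a, Kif12, Kif13b and Kif21b, did not pass and lay between -0.35 and 0.31. Of these, Kif21b passed under total counts alone (edgeR adjusted p 0.0271), within a range up to 0.339. Kif13b passed without pool A replicate 3 (edgeR adjusted p 0.0476, log2 fold change 0.46), within a range up to 0.537. The log2 fold change of Kif12 ran from -0.66 to 0.73 across the alternatives, and it passed under none of them. The class as a whole had 5 genes higher with pool A, against 5 with pool B of 19 tested (26.3% each way, beside 18.6% and 22.0% of all tested genes), and a median log2 fold change of -0.26.

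Of 12 Kif genes listed here as kinesins of the mitotic spindle, all tested, 5 were higher with pool B and 2 with pool A. The shares of all tested genes were 22.0% and 18.6%. The list was set by gene name, and it may hold genes that act elsewhere, such as Kif24. It is also not complete: Kif2a was placed in the class above, and the spindle motors Cenpe and Kifc1 do not match the name pattern. Kif22, the chromokinesin that pushes chromosome arms, had 53.4, 55.4 and 65.3 CPM with pool A and 195, 231 and 199 CPM with pool B. Its 3.24-fold difference was the largest of the class (log2 fold change -1.70 ± 0.15 (SE), edgeR adjusted p 6.69e-10). Kif14, a motor of cytokinesis, had 145, 143 and 155 CPM with pool A and 306, 358 and 365 CPM with pool B, and Kif18b, which shortens astral microtubules, had 97.4, 97.7 and 113 CPM and 194, 237 and 238 CPM. Both were near 2-fold higher with pool B, by -1.07 ± 0.14 and -0.97 ± 0.15 (SE) on the log2 scale (edgeR adjusted p 2.53e-07 and 4.23e-06). Kif4a, another chromokinesin, had 68.9, 128 and 113 CPM with pool A and 203, 222 and 240.2 CPM with pool B. The pool A library of replicate 1 was the lowest, and no pool A library reached the pool B range (log2 fold change -0.96 ± 0.18 (SE), edgeR adjusted p 7.12e-05).

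Kif11, the tetrameric motor that separates the spindle poles, was higher with pool A. It had 167, 122 and 149.6 CPM with pool A and 69.9, 56.9 and 74.9 CPM with pool B. All pool A libraries were above all pool B libraries, and the log2 fold change was 1.26 ± 0.17 (SE; edgeR adjusted p 6.79e-07). Kif15, which can stand in for Kif11 at the spindle, had 129, 163 and 171 CPM and 128, 114 and 134 CPM with overlapping ranges (log2 fold change 0.44 ± 0.15 (SE), edgeR adjusted p 0.024), and Kif20b had 88.2, 117 and 126 CPM and 178, 163 and 165 CPM (log2 fold change -0.47 ± 0.16 (SE), edgeR adjusted p 0.0173). Both were named for completeness, outside the rule. The call of Kif15 was lost under some alternatives: the edgeR adjusted p was 0.161 with total counts alone, 0.0908 without pool A replicate 2, 0.0594 without pool A replicate 3, and 0.103 with pool B replicate 2 left out, in a range of 0.00572 to 0.161 across the alternatives. That of Kif20b was lost likewise: the edgeR adjusted p was 0.0636 with upper-quartile factors, 0.134 without pool A replicate 1, and 0.0564 with pool B replicate 1 left out, in a range of 0.00388 to 0.134 across the alternatives. Kif2c, Kif18a, Kif20a, Kif23 and Kif24 did not pass, with log2 fold changes between -0.26 and 0.68, and Kif18a passed with DESeq2 size factors (edgeR adjusted p 0.0498) and with upper-quartile factors (0.0264). The summed CPM of the 12 genes was between 1052 and 1231 with pool A and between 1566 and 1801 with pool B. The class median was -0.13. Cenpe, from the companion lists, had 587, 614 and 670 CPM with pool A and 370, 343 and 388 CPM with pool B. Both Cenpe and Kifc1 were higher with pool A, by 0.91 ± 0.13 and 0.53 ± 0.16 (SE) on the log2 scale (edgeR adjusted p 1.39e-06 and 0.0116). Neither is in the counts and sums of this class, which therefore depend on the list chosen.

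Cytoplasmic dynein 1 is assembled on a pair of heavy chains that hold the motor domains, with intermediate, light intermediate and light chains attached. The heavy chain gene Dync1h1 (ENSRNOG00000006178) had 745, 557 and 669.8 CPM with pool A and 1262, 1178 and 1322 CPM with pool B. Every pool B library was above every pool A library, and the log2 fold change was -0.79 ± 0.13 (SE; edgeR adjusted p 2.35e-05). Dync1li2 (ENSRNOG00000025791), one of the light intermediate chains that bind cargo adaptors, had 50.2, 53.0 and 41.4 CPM with pool A and 223, 294 and 261 CPM with pool B. This was the largest difference in favour of pool B among the 80 genes, 4.84-fold (log2 fold change -2.28 ± 0.17 (SE), edgeR adjusted p 1.08e-11). Its paralog Dync1li1 had 47.7, 51.4 and 58.3 CPM and 41.2, 41.6 and 46.9 CPM. Here the pool A libraries were slightly above those of pool B, without overlap, and the log2 fold change of 0.42 ± 0.20 (SE) did not pass (edgeR adjusted p 0.107), except with upper-quartile factors (0.042, within a range up to 0.33).

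The intermediate chains, which join the heavy chains to dynactin, did not pass. Dync1i1 had counts of 33, 13 and 24 with pool A and 10, 7 and 16 with pool B, too few to show a moderate difference (log2 fold change 0.84 ± 0.57 (SE), edgeR adjusted p 0.264). Dync1i2 had 44.2, 38.0 and 28.2 CPM and 41.2, 19.7 and 26.5 CPM (log2 fold change 0.47 ± 0.28 (SE), edgeR adjusted p 0.187). Without pool B replicate 1, the highest of its pool, Dync1i2 had a log2 fold change of 0.81 and an edgeR adjusted p of 0.0372, within a range up to 0.525. Summed over the 5 chains, dynein 1 had between 704 and 896 CPM with pool A and between 1537 and 1662 CPM with pool B, most of it Dync1h1.

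Among the light chains, Dynll2 stood apart. Dynll1 and Dynll2 encode near-identical LC8 proteins, hubs that dimerise dynein and many other partners. Dynll2 had 158, 139 and 151 CPM with pool A and 505, 500.4 and 547 CPM with pool B. The groups were more than 3-fold apart, with a log2 fold change of -1.65 ± 0.13 (SE; edgeR adjusted p 6.17e-11). Dynll1 had 40.2, 44.7 and 43.6 CPM and 41.6, 39.4 and 35.9 CPM, overlapping, with a log2 fold change of 0.28 ± 0.22 (SE; edgeR adjusted p 0.333). Dynlrb1, a roadblock light chain, had 51.5 ± 12.2 CPM and 58.0 ± 9.20 CPM (SD, n = 3; edgeR adjusted p 0.934). Dynlt1, a Tctex light chain, had counts of 12, 16 and 11 and 16, 15 and 24 and did not pass (log2 fold change -0.66 ± 0.59 (SE), edgeR adjusted p 0.405). Dynlt3 and Dynlrb2 had too few counts to test.

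Dynein 2 drives transport back from the tip of the cilium. Its heavy chain Dync2h1 had 42.3, 38.4 and 56.8 CPM with pool A and 98.5, 113 and 126 CPM with pool B, and its light intermediate chain Dync2li1 had 17.9, 14.2 and 30.4 CPM and 9.88, 5.48 and 6.81 CPM. The pair went in opposite directions without overlap in either gene. The log2 fold change was -1.15 ± 0.18 (SE; edgeR adjusted p 8.9e-06) for Dync2h1 and 1.60 ± 0.39 (SE; edgeR adjusted p 0.00172) for Dync2li1.

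Of 6 genes of dynactin, the activator that ties dynein to cargo, 1 passed (16.7%, beside 40.6% of all tested genes). Dctn1, which encodes its p150Glued arm and had the most counts of the 80 genes, had 1232, 1118 and 1359.9 CPM with pool A and 1452, 1497 and 1517 CPM with pool B. The CPM of pool B were all higher, but on the TMM scale the log2 fold change was -0.13 ± 0.13 (SE) and did not pass (edgeR adjusted p 0.463). Dctn6, a subunit of the pointed end, was the one that passed. It had 63.5, 43.5 and 48.9 CPM with pool A and 24.2, 30.7 and 27.2 CPM with pool B, which gave a log2 fold change of 1.08 ± 0.23 (SE; edgeR adjusted p 0.000429). Dctn2, Dctn3, Dctn4 and Dctn5 lay between -0.95 and 0.63. Dctn2 passed in favour of pool A with upper-quartile factors, with at least 10 counts in every library, without pool A replicate 2 and when pool B replicate 3 was left out (edgeR adjusted p 0.0255, 0.0415, 0.0478 and 0.0222, log2 fold change 0.49, 0.40, 0.50 and 0.57), and Dctn3 passed in favour of pool B with total counts alone and with that count minimum (edgeR adjusted p 0.0498 and 0.0444).

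**Figure D3:**
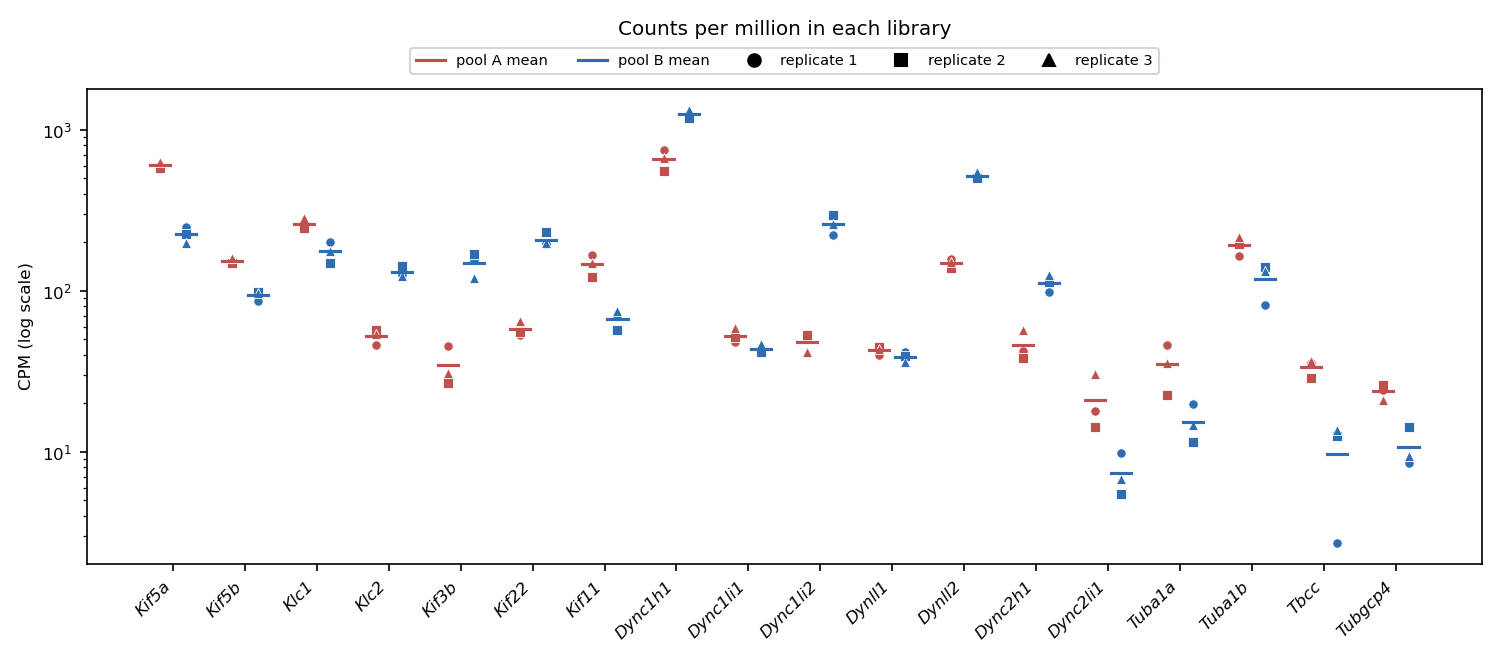
CPM on a log scale (y axis) of 18 genes in each library, with pool A in red and pool B in blue, symbols for replicates and a bar for the mean of 3. Kif5a, Klc1, Kif11 and the tubulin genes lie higher with pool A, Klc2, Kif3b, Kif22, Dync1li2 and Dynll2 lie higher with pool B, and for Dynll1 the pools overlap; Tbcc has 1 pool B library, replicate 1, far below the others.

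Of 4 alpha and 6 beta tubulin genes tested, all had a fold change in favour of pool A, 4 passed, and none passed in favour of pool B. The 4 calls among 10 genes are close to the 40.6% of all tested genes called in either direction (18.6% in favour of pool A and 22.0% in favour of pool B). Across the alternatives, Tubb4b was the one whose sign turned, with a log2 fold change of -0.035 under total counts alone, and of -0.057 or -0.021 on leaving out replicate 1 of pool A or of pool B. The median log2 fold change was 0.69 for alpha and 0.60 for beta tubulin. Tuba1b (ENSRNOG00000053468), the main alpha tubulin of dividing cells, had 165, 196 and 216 CPM with pool A and 81.5, 141 and 134 CPM with pool B. The lowest library was pool B replicate 1, and the ranges did not overlap (log2 fold change 0.85 ± 0.17 (SE), edgeR adjusted p 0.000259). Tuba1a, the alpha tubulin of neurons, had 46.4, 22.5 and 35.8 CPM and 19.8, 11.5 and 14.8 CPM, also without overlap (log2 fold change 1.31 ± 0.30 (SE), edgeR adjusted p 0.000924). Tuba1c had counts of 16, 16 and 27 and 11, 14 and 9 and did not pass (edgeR adjusted p 0.514), nor did Tuba4a with 32.2 ± 4.11 CPM and 28.8 ± 3.47 CPM (SD, n = 3; edgeR adjusted p 0.347). Tuba3a, Tuba3b, Tuba8 and Tubal3 had too few counts to test.

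Among the beta tubulins, Tubb3, a marker of neurons and endocrine cells, had 67.3, 35.2 and 47.4 CPM with pool A and 40.2, 31.2 and 32.9 CPM with pool B. Its pool A libraries were widely spread, with replicate 1 the highest and replicate 2 inside the pool B range (log2 fold change 0.67 ± 0.24 (SE), edgeR adjusted p 0.0279). Tubb6 had 37.7, 25.3 and 33.3 CPM and 24.9, 24.6 and 17.0 CPM, with replicate 2 of pool A only just above pool B (log2 fold change 0.69 ± 0.27 (SE), edgeR adjusted p 0.0442). The call of Tubb3 was lost under some alternatives: the edgeR adjusted p was 0.0947 with total counts alone, 0.292 without pool A replicate 1, 0.0904 without pool B replicate 2, and 0.0865 with pool B replicate 3 left out, in a range of 0.0107 to 0.292 across the alternatives. That of Tubb6 was lost as well: the edgeR adjusted p was 0.0616 with no expression filter, 0.0534 with the replicate number as a block, 0.127 with total counts alone, 0.196 without pool A replicate 1, 0.0701 without pool A replicate 3, 0.053 without pool B replicate 2, and 0.182 with pool B replicate 3 left out, in a range of 0.0207 to 0.196 across the alternatives. Tubb5, the beta tubulin with the most counts, had 114, 128 and 154 CPM and 125, 115 and 120.3 CPM and did not pass (log2 fold change 0.27 ± 0.15 (SE), edgeR adjusted p 0.16), except with upper-quartile factors (0.0481, within a range up to 0.568). Tubb2a, Tubb4a and Tubb4b did not pass, except Tubb2a without pool B replicate 1 (log2 fold change 1.78, edgeR adjusted p 0.0324). Tubulin genes are near-identical in their coding parts, and how reads matching several of them were counted is not given in the sources used here. With all alpha rows summed to 1 row, and all beta rows likewise, the log2 fold changes were 0.80 ± 0.15 (SE; edgeR adjusted p 7.89e-05) and 0.37 ± 0.13 (SE; edgeR adjusted p 0.0246). The summed beta tubulin therefore passed in this fit, although most of its members did not. The summed rows were fitted with TMM and all libraries only, so whether their calls hold under the alternatives was not tested. With total counts alone, 0 single beta tubulin genes passed.

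Gamma tubulin nucleates new microtubules, in a ring with the Tubgcp proteins. Tubg1 had 77.9, 80.7 and 101 CPM with pool A and 51.8, 57.5 and 90.0 CPM with pool B, and Tubg2, in the next row of the table, had 85.7, 70.4 and 68.7 CPM and 59.3, 57.5 and 46.2 CPM. Both passed in favour of pool A (0.52 ± 0.20 and 0.62 ± 0.19 (SE) on the log2 scale, edgeR adjusted p 0.0397 and 0.0107), Tubg1 with overlapping ranges. The call of Tubg1 was lost under some alternatives: the edgeR adjusted p was 0.155 with total counts alone, 0.0608 without pool A replicate 2, 0.106 without pool A replicate 3, 0.202 without pool B replicate 1, and 0.149 with pool B replicate 2 left out, in a range of 0.00338 to 0.202 across the alternatives. That of Tubg2 was lost under fewer: the edgeR adjusted p was 0.0593 with total counts alone, 0.0724 without pool A replicate 1, and 0.0703 with pool B replicate 3 left out, in a range of 0.00326 to 0.0724 across the alternatives. Of the 5 ring proteins tested, Tubgcp4 had 24.1, 26.1 and 21.0 CPM and 8.52, 14.2 and 9.46 CPM, clearly apart (log2 fold change 1.32 ± 0.34 (SE), edgeR adjusted p 0.00275). Tubgcp6, the largest of them, lay on the other side, with 127, 105 and 122 CPM and 198, 212 and 165 CPM (log2 fold change -0.55 ± 0.15 (SE), edgeR adjusted p 0.00362). Tubgcp2, Tubgcp3 and Tubgcp5 did not pass and lay between -0.23 and 0.33.

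The folding cofactors help alpha and beta tubulin join into dimers after synthesis. Tbcc, which acts at the last step of this pathway, exceeded the rest of the 80 genes in its pool A excess, with counts of 132, 73 and 117 with pool A and 8, 23 and 36 with pool B. These equal 35.8, 28.9 and 36.7 CPM and 2.73, 12.6 and 13.6 CPM. Pool B replicate 1 had the lowest level by far. The log2 fold change of Tbcc, 1.99 ± 0.38 (SE; edgeR adjusted p 0.000103) was 1.5 without that library, where the call held (edgeR adjusted p 0.000437). This is below the values of Dync2li1 (1.60) and Kif5a (1.58) with all libraries, so the first place of Tbcc rests on that library. The other cofactors, Tbca, Tbcb, Tbcd and Tbce, had log2 fold changes between 0.03 and 0.40 and did not pass (edgeR adjusted p from 0.362 to 0.894). Tbcb was the least even of them, with 10.2, 22.4 and 26.5 CPM in the pool B libraries.

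Stathmins bind tubulin dimers and promote microtubule shrinkage, whereas end-binding proteins track growing tips. Stmn1 had 264, 294 and 324 CPM with pool A and 234, 194 and 198 CPM with pool B, without overlap, a log2 fold change of 0.64 ± 0.14 (SE; edgeR adjusted p 0.000435). Stmn3, a neuronal stathmin, had 33.1, 35.2 and 40.8 CPM and 22.8, 32.3 and 21.9 CPM and passed narrowly (log2 fold change 0.66 ± 0.25 (SE), edgeR adjusted p 0.0374). Its call was lost under some alternatives: the edgeR adjusted p was 0.0575 with no expression filter, 0.121 with total counts alone, 0.0543 without pool A replicate 1, 0.0766 without pool A replicate 2, 0.0905 without pool A replicate 3, 0.107 without pool B replicate 1, and 0.132 with pool B replicate 3 left out, in a range of 0.016 to 0.132 across the alternatives. Stmn2 had counts of 23, 21 and 7 and 36, 6 and 15, an uneven gene within both pools, and did not pass (edgeR adjusted p 0.813). The end-binding genes Mapre1 and Mapre3 had 9.32 ± 3.06 CPM and 14.7 ± 4.83 CPM with pool A and 15.1 ± 6.76 CPM and 17.3 ± 6.29 CPM with pool B (SD, n = 3), and did not pass (edgeR adjusted p 0.307 and 0.931).

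Genes of 1 family can be compared within a library, where the ratio of their counts does not depend on scaling. For 31 pairs of paralogs in 16 families, listed after fold changes of these genes had been seen, the ratio did not overlap between the pools in 19, or 61.3%, against 49.2% of all pairs of tested genes. With 3 libraries against 3, an exact permutation test of such a ratio cannot give a two-sided p under 0.1. The counts of Dync1li1 per count of Dync1li2 were 0.951, 0.970 and 1.41 with pool A and 0.185, 0.142 and 0.179 with pool B, a 6.52-fold shift. Those of Kif3a per Kif3b were 1.88, 2.57 and 3.08 and 0.524, 0.365 and 0.740, a 4.72-fold shift. In both pairs the second gene passed in favour of pool B and the first did not pass. Those of Dynll1 per Dynll2 were 0.254, 0.321 and 0.288 and 0.0823, 0.0788 and 0.0657, and those of Klc1 per Klc2 were 5.41, 4.31 and 5.26 and 1.62, 1.04 and 1.43, shifts of 3.81-fold and 3.70-fold. Of the 31 pairs, 3 held genes that passed in opposite directions: Klc1 with Klc2, Klc1 with Klc4, and Kif1a with Kif1b. The last of these rests on the call of Kif1a described above. Of all tested genes, 18.6% passed in favour of pool A and 22.0% in favour of pool B. The share of all pairs with opposite calls was not computed, so this count is not read as few or many. Tuba1a, Tuba1b and Tuba1c, which lie in consecutive rows, had ratios that overlapped between the pools in each pairing, as did Tubg1 with Tubg2.

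**Figure D4:**
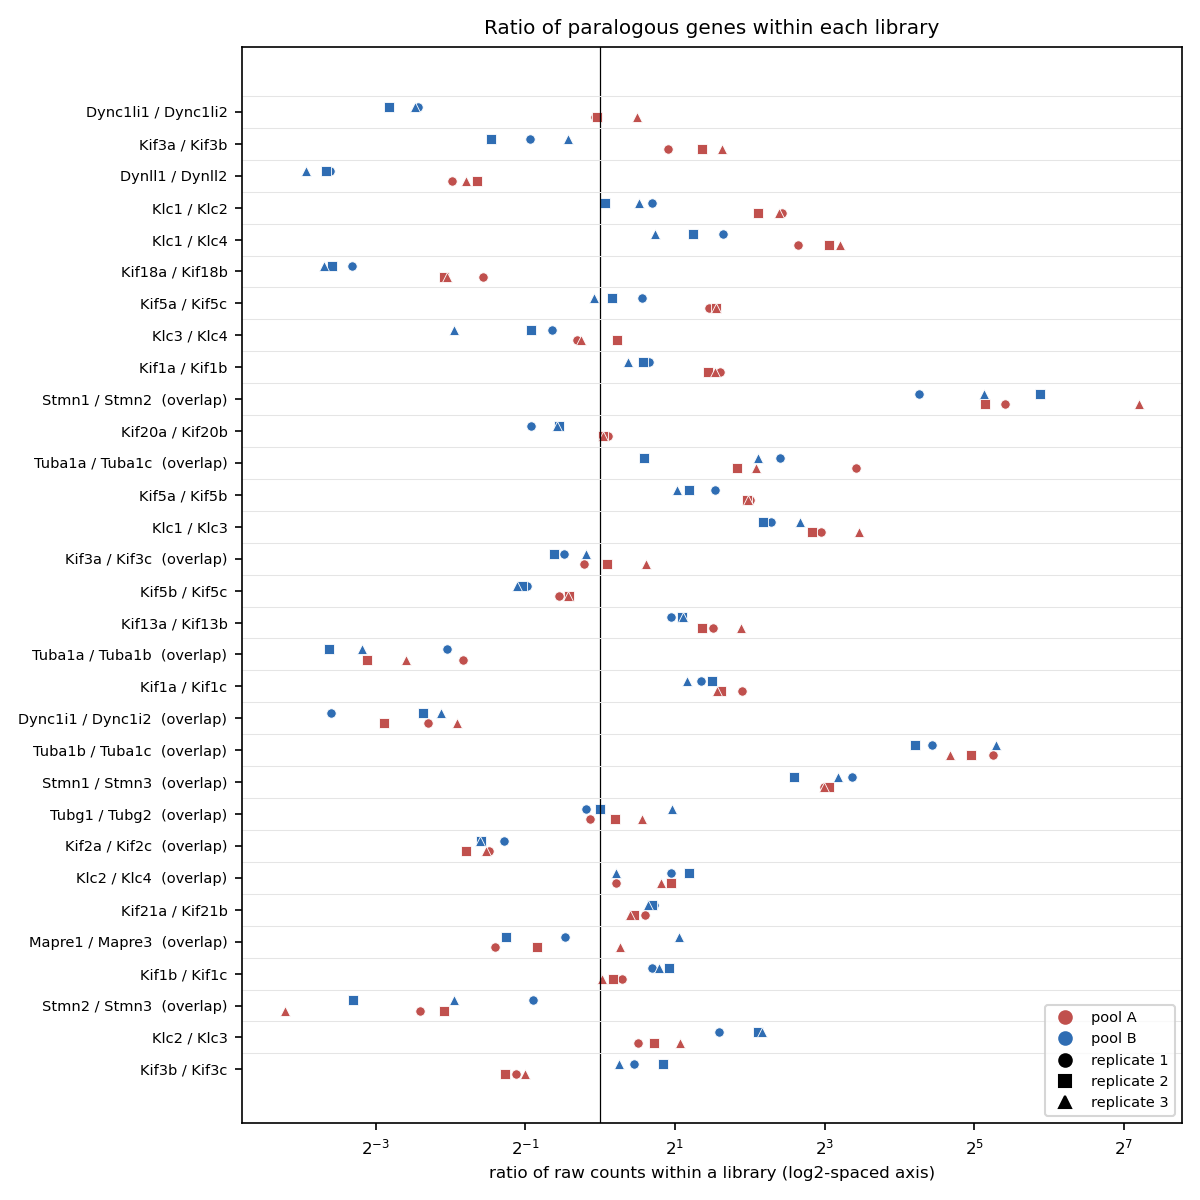
Ratio of raw counts of 2 paralogs within each library (x axis, log2-spaced) for 31 pairs (rows, ordered by the difference between pools), with pool A in red, pool B in blue and symbols for replicates. The red and blue points lie apart for 19 pairs, most widely for Dync1li1 over Dync1li2, and overlap for the 12 pairs marked so, among them the alpha and gamma tubulin pairs.

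Other genes of the pathway were taken from lists of genes that do not match the name pattern; Hook3, Kifbp and Ttll11 were not matched by symbol, and Kifbp is another name of the gene the table calls Kif1bp. Of 15 dynein regulators and adaptors tested, 5 were higher with pool A, against 6 with pool B. In all 73.3% of this list passed, beside 40.6% of all tested genes. The shares of this and the following lists were not matched for depth, and calls were more frequent among deeper genes above. Pafah1b1, which encodes the dynein regulator Lis1, had 44.8, 53.0 and 60.5 CPM with pool A and 346, 368 and 356 CPM with pool B. Like Dync1h1 and Dync1li2 it was higher with pool B in every library (log2 fold change -2.62 ± 0.15 (SE), edgeR adjusted p 6.85e-14). The adaptor genes Bicd1 and Hook1 went the other way, with 539.6, 519 and 501 CPM and 210.3, 216 and 236 CPM with pool A and 95.4, 84.3 and 107 CPM and 34.4, 36.1 and 53.7 CPM with pool B. On the log2 scale they differed by 2.58 ± 0.15 and 2.55 ± 0.18 (SE; edgeR adjusted p 4.79e-14 and 2.93e-12). Bicd2, the paralog of Bicd1, is named after its values were seen: it had 85.2, 55.0 and 78.1 CPM with pool A and 284, 356 and 297 CPM with pool B, and a log2 fold change of -1.95 ± 0.16 (SE; edgeR adjusted p 7.85e-11).

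Of 16 kinesin adaptors and minus-end kinesins, 6 were higher with pool A, against 3 with pool B (56.2% in all, beside 40.6%). Besides Kifap3, the scaffold gene Mapk8ip2 was higher with pool A, with 482, 404 and 462 CPM against 153, 169 and 135 CPM (log2 fold change 1.71 ± 0.14 (SE), edgeR adjusted p 5.61e-11). Plekhm2, which couples lysosomes to kinesin, was higher with pool B, with 35.0, 17.4 and 46.7 CPM against 82.8, 87.1 and 79.1 CPM (log2 fold change -1.18 ± 0.23 (SE), edgeR adjusted p 0.000157). Of 26 microtubule-binding proteins, 5 were higher with pool A, against 6 with pool B (42.3% in all, beside 40.6%). Map1a, a structural protein of neuronal microtubules, had 114, 89.0 and 124 CPM with pool A and 1341, 971 and 1066 CPM with pool B. This 9.35-fold difference exceeded that of every gene matched by name (log2 fold change -3.23 ± 0.15 (SE), edgeR adjusted p 2.38e-15). Its relative Map1b had 628, 587 and 788 CPM and 2259.8, 2104 and 2497 CPM, on the same side (log2 fold change -1.64 ± 0.14 (SE), edgeR adjusted p 1.14e-10), while the microtubule polymerase gene Ckap5 had 299, 286 and 276 CPM and 85.2, 141 and 111 CPM and was higher with pool A (log2 fold change 1.51 ± 0.16 (SE), edgeR adjusted p 1.16e-08).

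Enzymes that sever or modify microtubules passed in favour of pool B in 6 of 17 cases and in favour of pool A in 2 (35.3% and 11.8%, beside 22.0% and 18.6% of all tested genes), with a list median of -0.45. Vash1, which removes the last tyrosine of alpha tubulin, had 10.9, 14.6 and 14.1 CPM with pool A and 52.1, 62.4 and 58.6 CPM with pool B. Ttl, the ligase that puts this tyrosine back, had 4.07, 7.12 and 6.59 CPM and 21.8, 14.8 and 27.6 CPM, and the tubulin deacetylase gene Sirt2 had 26.3, 26.9 and 33.3 CPM and 89.0, 104 and 127 CPM. All 3 were higher with pool B without overlap, by log2 fold changes of -1.99 ± 0.25, -1.73 ± 0.41 and -1.75 ± 0.20 (SE; edgeR adjusted p 2.46e-07, 0.00117 and 3.81e-08). Of 10 other tubulins and centrosomal cofactors, 3 passed, beside 40.6% of all tested genes: 2 passed in favour of pool A (Pcnt with a log2 fold change of 0.98 ± 0.13 and Akap9 with 0.38 ± 0.13 (SE), both scaffolds for gamma-tubulin rings) and 1 in favour of pool B (Cdk5rap2, -0.70 ± 0.16 (SE)). The log2 fold change of Akap9 had an edgeR adjusted p of 0.0196, and its call was lost with total counts alone (0.196), on leaving out replicate 1 of pool A (0.0646), and on leaving out replicate 2 (0.104) or 3 (0.053) of pool B, in a range of 0.00258 to 0.196 across the alternatives in edgeR and DESeq2. The medians of the 5 lists lay between -0.45 and 0.21.

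**Figure D5:**
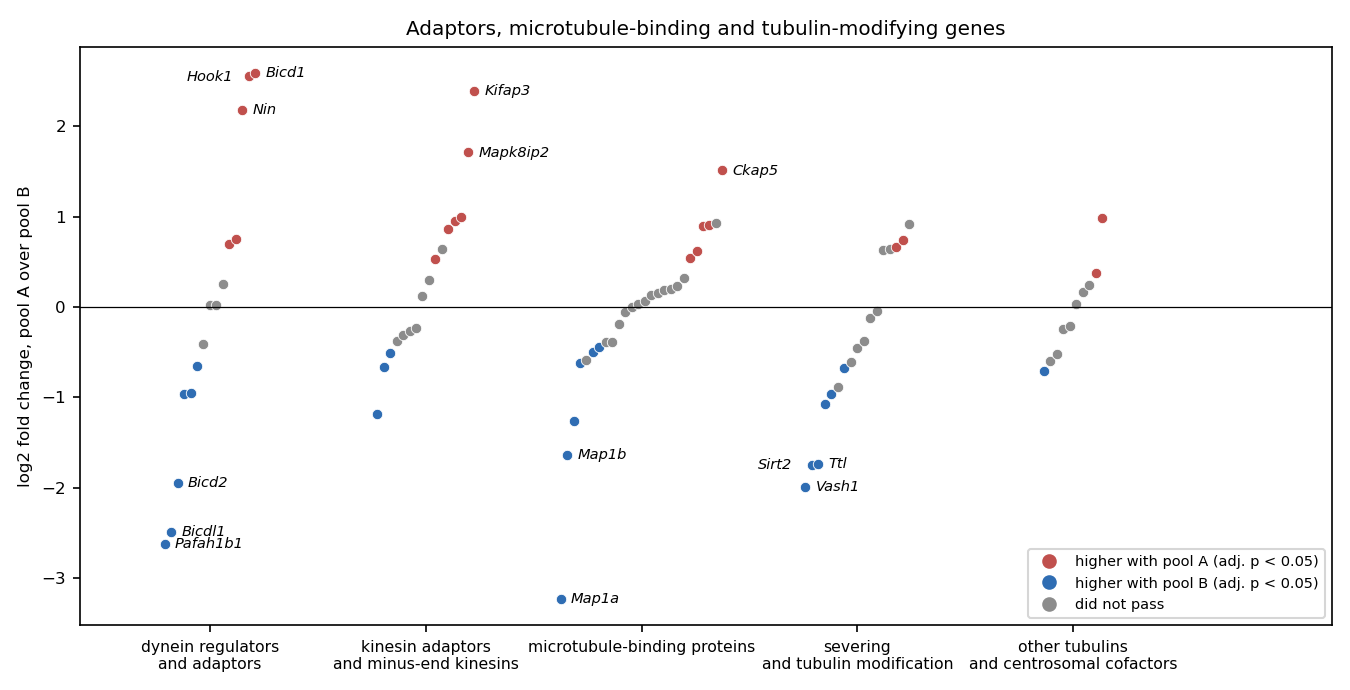
Log2 fold change of pool A over pool B (y axis) for tested genes of 5 lists (x axis, ordered by value within a list), coloured by call; genes beyond 1.5 are named. Each list holds genes higher with pool A and genes higher with pool B, from -3.23 for Map1a to 2.58 for Bicd1.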

How the data were processed

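The authors deposited whole-number read counts per gene for 6 libraries, and per-pool means that are not used here. Reads were aligned with STAR and counted with featureCounts, per the submitters' processing notes; versions, genome build, annotation and the treatment of reads matching several genes are not given in the sources used here. Counts were fitted over the whole table with edgeR 4.0.16 in R 4.3.3 (TMM factors, filterByExpr by pool with a minimum count of 10, quasi-likelihood test, two-sided). P-values were adjusted by Benjamini-Hochberg over all 11582 genes tested, at a threshold of 0.05. CPM was computed from the total count of each library. The standard error is the log2 fold change divided by the square root of F. On counts simulated for this comparison (11520 genes), 96 tested genes were changed 2-fold and 99 were changed 4-fold. Of these changes, 53.1% and 92.9% were recovered, and 3.38% of calls were false. Far more genes were called in the data (4700 of 11582) than were changed in the simulation, so these shares need not hold for the data.

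The members, gene lists and families were chosen with earlier results of these data known. In each class the text names every tested gene where 5 or fewer were tested, and otherwise up to 5 called genes with the largest fold change and a mean of at least 10 counts, plus the gene with the most counts. In each companion list it names up to 3 called genes by the same measure. Genes named outside this rule were chosen after their values were seen. Libraries of 1 pool differed from each other by 5.24 to 7.83 times the counting noise (chi-square per degree of freedom), so all 6 were kept as separate. Alternatives were other scalings, other expression filters, DESeq2 1.42.0, the replicate number as a block, and leaving out each library.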

Additional observations from a re-analysis of the deposited data

How the results depend on the processing

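Of 37 called genes, 28 kept their call under all 14 alternatives in which they were tested, and 9 lost it under at least one (Kif1a, Kif7, Kif15, Kif20b, Stmn3, Tubb3, Tubb6, Tubg1 and Tubg2); 12 others gained one. Over 906 refits of 65 named genes under these alternatives, 867 kept the side of the threshold, 33 lost the call (7 genes, Akap9 of the companion lists among them), 6 gained it and no called gene changed sign; in 19 refits a gene without a call did. Set against the summed alpha or beta tubulin row, 3 of the 7 named tubulin genes had no call of their own while the summed row passed. The sign of 8 genes without a call in the fit reported differed between the 4 scalings (Dynlrb1, Kif1c, Kif23, Klc3, Mapre3, Tbcd, Tubb4b and Tubgcp2). With total counts alone, 12 of these genes were higher with pool A, of which 0 were beta tubulins, 1 a gene of the gamma tubulin class, 3 non-spindle kinesins, 1 a spindle kinesin and 1 a stathmin. Under the same setting 1 dynactin gene and 6 kinesin adaptors were higher with pool B, and 1 of the other tubulins and centrosomal cofactors with pool A. Upper-quartile factors gave 1 dynein 1 chain, 2 dynactin genes and 4 severing or modifying enzymes higher with pool A. With at least 10 counts in every library, 2 dynactin genes and 0 cofactors were higher with pool A, since Tbcc was then not tested, and 1 dynactin gene with pool B. With no expression filter, 1 beta tubulin and 1 stathmin were higher with pool A. The cause of these changes was otherwise not tested.

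Leaving out each library in turn gave counts from 14 to 19 for the kinesin, dynein and tubulin genes higher with pool A, from 17 to 18 for those higher with pool B, from 0 to 3 for beta tubulin higher with pool A, from 0 to 1 for cytoplasmic dynein 1 chains higher with pool A, from 1 to 2 for dynactin higher with pool A. It gave counts from 3 to 6 for other kinesin heavy chains higher with pool A, from 1 to 2 for spindle kinesins higher with pool A, from 1 to 2 for stathmins higher with pool A, from 2 to 4 for severing and tubulin modification higher with pool A and from 1 to 2 for other tubulins and centrosomal cofactors higher with pool A.

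Same-numbered libraries did not deviate together (correlations of 0.0382, -0.0228 and 0.013), so the numbers were not treated as pairs. Adding the replicate block to the fit gave 18 calls in favour of pool A, 1 of them a beta tubulin, and 17 in favour of pool B. Depth limits the low genes: 3 counts correspond to between 0.814 and 1.64 CPM. The 53.1% of simulated 2-fold changes that passed is over genes of all depths, so it does not measure this limit.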
